A study of Mus musculus with 2 samples.

Results

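MHC class I molecules and the machinery that loads them with peptide were examined in mouse peritoneal macrophages of the genotypes Pac1-/- and Pac1+/+ after bacterial lipopolysaccharide (LPS). The genes were chosen by name: H2-K1 and H2-D1, which encode classical heavy chains, H2-T23, which encodes the non-classical heavy chain Qa-1, B2m, Tap1, Tap2 and Tapbp. Of the 8220 genes with a probe set of their own, 6 were members. Of the 12654 probe sets, 15 were annotated to at least 1 of these 7 genes. Of these, 11 named 1 member alone and covered 6 genes, and 4 named a member together with other genes and are given apart. H2-T23 had no probe set of its own and was measured only through shared ones.

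Nearly every nucleated cell displays class I molecules, each a heavy chain paired with beta-2-microglobulin around a peptide. Peptides cut from cytosolic proteins by the proteasome are pumped into the endoplasmic reticulum by the TAP transporter, a dimer of the Tap1 and Tap2 proteins, and tapasin, encoded by Tapbp, bridges TAP to the empty heavy chain. CD8 T cells read the resulting complexes, and in macrophages interferons and microbial products are known to raise the genes of the pathway.

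Each genotype was measured on 1 Affymetrix array. The knockout array carried RNA of Pac1-/- macrophages and the wild-type array RNA of Pac1+/+ macrophages from age-matched littermates. PAC1 is the product of Dusp2, a phosphatase of MAP kinases. Cells of both genotypes had been drawn to the peritoneum by thioglycollate, separated from other cells by their adherence, and given LPS at 100 ng/ml for 6 hours, when inflammatory genes are expressed per the labels. Unstimulated cells were not analysed here, so the values are levels after LPS. The sources used here do not give the strain, the number of mice per array or any pooling. A single array per genotype leaves every difference without a replicate check, so sizes stand without errors or p-values. Values are MAS5 signals in arbitrary units. They are compared between the arrays for the same probe set, or as sums over the same list of probe sets, in which bright ones weigh most. The genotype label was checked on Dusp2, at 76.8 on the knockout array against 333 on the wild-type one, and the place of its probes relative to the deletion is not stated.

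The promoters of B2m, H2-D1 and Tapbp, and the stretch shared by Tap1 and Psmb9, are shown to set the members beside each other. They hold different numbers of matches to the regulatory elements known from class I genes. The first 3 lines give the 250 bases before the start of each gene, and the fourth gives the 225 bases between the starts of Tap1 and Psmb9, which are transcribed away from each other. All are read 5′ to 3′ on the plus strand from RefSeq on GRCm38.p6, a C57BL/6J genome, and class I genes are known to vary between strains. B2m lies at chr2:122147437-122147686, H2-D1 at chr17:35262844-35263093, Tapbp at chr17:33919228-33919477 and the Tap1 and Psmb9 stretch at chr17:34187331-34187555. Capitals mark matches on either strand to the interferon-stimulated response element (GAAA, any 2 bases, GAAA), to the NF-kB consensus, to the core of the X2 box (TGACG) and to the Y box (ATTGG).
B2m: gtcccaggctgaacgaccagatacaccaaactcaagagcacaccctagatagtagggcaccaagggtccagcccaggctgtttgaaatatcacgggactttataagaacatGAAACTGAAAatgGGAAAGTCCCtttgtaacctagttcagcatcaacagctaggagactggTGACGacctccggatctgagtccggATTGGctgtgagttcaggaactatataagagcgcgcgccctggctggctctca
H2-D1: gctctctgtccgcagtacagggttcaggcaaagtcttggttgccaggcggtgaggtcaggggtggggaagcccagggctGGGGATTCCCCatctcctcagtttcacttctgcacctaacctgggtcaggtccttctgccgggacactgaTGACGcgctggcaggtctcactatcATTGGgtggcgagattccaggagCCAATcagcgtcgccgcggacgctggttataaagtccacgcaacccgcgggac
Tapbp: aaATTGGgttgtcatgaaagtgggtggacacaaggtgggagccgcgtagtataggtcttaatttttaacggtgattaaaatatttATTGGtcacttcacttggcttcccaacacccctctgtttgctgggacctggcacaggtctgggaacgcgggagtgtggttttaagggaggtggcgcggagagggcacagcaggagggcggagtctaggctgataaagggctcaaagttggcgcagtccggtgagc
Tap1 and Psmb9: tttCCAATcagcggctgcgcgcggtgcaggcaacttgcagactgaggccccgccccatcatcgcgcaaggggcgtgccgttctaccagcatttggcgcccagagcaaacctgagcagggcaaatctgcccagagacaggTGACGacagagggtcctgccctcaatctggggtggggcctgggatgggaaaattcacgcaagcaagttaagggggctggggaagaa

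B2m held matches to all 4 patterns in these bases. The interferon element began 139 bases before the start, the NF-kB match lay next to it at 126 on the opposite strand, and the X2 core and the Y box stood at 78 and 53. H2-D1 had overlapping NF-kB matches on both strands at 171 and 170, an X2 core and a Y box at 101 and 76, and a Y box on the opposite strand at 53. In both promoters 20 bases separated the X2 core from the Y box. The same spacing occurred before both annotated starts of H2-K1, with the X2 core at 41 and the Y box at 16 from the nearer start and at 55 and 30 from the farther one, and with overlapping NF-kB matches upstream of them. That spaced pair, noticed in these sequences, was present in 30 of 32851 mouse promoter stretches of the same length (0.0913%). The 30 include the stretches of B2m, H2-D1 and both starts of H2-K1, from which the spacing was taken. Taken alone, the interferon element occurred in 2.98% of the stretches, the NF-kB consensus in 7.25%, the X2 core in 17.8% and the Y box in 33.8%. Before Tap1 the matches were an X2 core at 86 bases and a Y box on the opposite strand at 222, and before Tapbp they were Y boxes at 248 and 165. H2-T23 had an interferon element on the opposite strand at 124 and a Y box on that strand at 52. A match describes letters in these windows and not the binding of a factor. Only the letters given were searched. The lack of a match, as for the interferon element in H2-D1, thus does not show that such an element is absent. Promoter entries were matched for 6 of the 7 members, all but Tap2.

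All 11 probe sets specific to a member were above the floor of 36.4, the median of all signals, on both arrays. None was 2-fold or 1.5-fold apart between the genotypes (0 of 11). Across the 6834 eligible probe sets, which exceeded the floor in at least 1 genotype, 2.3% were 2-fold or more apart and 12.5% were 1.5-fold or more apart. Of the 9 member probe sets with a mean signal of at least 1000, a limit set after the values were known, 0 were 1.5-fold apart, against 1.77% of the 623 probe sets as bright, of which 0% were 2-fold apart. On the log2 scale, 8 of the 11 ratios of knockout over wild type were above 0 and 3 were below, with a median of 0.10. Over all eligible probe sets 52.5% were above 0 and the median was 0.02. With a common median in place of a common trimmed mean as the scale of the arrays, the median of all eligible probe sets moved by −0.11 to −0.09. The members' median was then −0.022 and 5 of 11 were above 0. Under either scaling 8 of 11 lay above the median of all probe sets, but such a rescaling moves all ratios nearly alike. That count therefore could hardly change. Without probe sets whose suffix marks possible cross-hybridisation, 3 of 6 lay above the median of all.

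**Figure D1:**
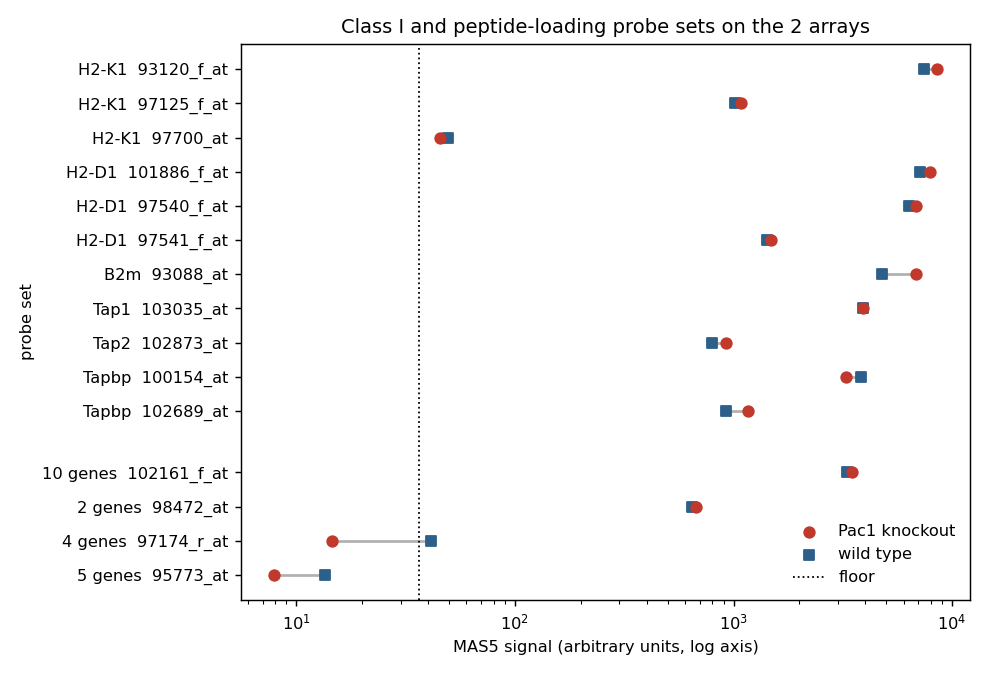
MAS5 signals (horizontal log axis, arbitrary units) of the 11 probe sets annotated to 1 member and, below a gap, of the 4 shared ones, with the knockout array as red circles, the wild-type array as blue squares and the floor of 36.4 as a dotted line. The signals of most probe sets nearly coincide, and B2m at 6834 in the knockout against 4797 in the wild type is the widest pair among those annotated to 1 member.

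All 9 markers of macrophages, the labelled cell type, were above the floor on both arrays, and Itgam was at 356 in the knockout against 301 in the wild type, Cd68 at 4582 in the knockout against 3821 in the wild type, Csf1r at 1090 in the knockout against 852 in the wild type and Adgre1 at 364 in the knockout against 350 in the wild type. Of these 9 markers 7 had ratios above 0. The 2 below 0 were Mrc1, at 295.2 in the knockout against 360.5 in the wild type (log2 ratio −0.29), and Mpeg1. Mpeg1 was at 8897 in the knockout against 8916 in the wild type (−0.003). The 9 markers had a median log2 ratio of 0.24, or 0.12 under a common median of the arrays. Their summed signal was 33704 in the knockout against 29976 in the wild type. The summed signal of the 6 members was 31443 in the knockout against 27950 in the wild type, 112% of the wild-type level in both lists. Such sums weight genes by the brightness of their probe sets, so the percentages are not a like measure of the lists. Among the members, B2m alone was at 6834 in the knockout against 4797 in the wild type. In bulk RNA, more cells of a type and more RNA per cell cannot be told apart. The part of the macrophage markers' shift in the members' ratios was not tested.

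The light chain had the highest ratio. The B2m signal was 6834 on the knockout array against 4797 on the wild-type one, 1.42-fold higher in the knockout (log2 ratio 0.51). It kept a positive ratio under every scaling tried, between 0.39 and 0.51. Both signals lay above every floor tried, so a change of floor could not move the ratio. Among all 6834 eligible probe sets, 597 (8.74%) had a ratio at least as high. Bright probe sets varied less between the arrays, and of the 623 with a mean signal of at least 1000, 8 (1.28%, B2m included) had such a ratio. B2m had 1 probe set, so no other probes bear on this value.

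The classical heavy chains were closer to the wild-type level. The brightest H2-K1 probe set, 93120_f_at, was at 8557 on the knockout array against 7458 on the wild-type one (log2 ratio 0.20). The next, 97125_f_at, was at 1077 in the knockout against 1014 in the wild type (0.09). The third, 97700_at, was at 45.5 in the knockout against 49.3 in the wild type (−0.12), a dim pair just above the floor. The 2 bright H2-K1 probe sets were thus slightly higher in the knockout and the dim one slightly lower.

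The 3 H2-D1 probe sets were slightly higher in the knockout. Probe set 101886_f_at was at 7962 in the knockout against 7160 in the wild type (log2 ratio 0.15). Probe set 97540_f_at was at 6825 in the knockout against 6384 in the wild type (0.10), and 97541_f_at was at 1478 in the knockout against 1416 in the wild type (0.06). The ratios of the 5 bright heavy-chain probe sets thus ran from 0.06 to 0.20. With arrays scaled to the same median, 97125_f_at, 97540_f_at and 97541_f_at were just below 0 (−0.03, −0.02 and −0.06). All 5 carry the suffix _f_at, by which the maker of the array marked probes that can match several members of a gene family, so H2-K1, H2-D1 and related transcripts are not cleanly separated by them. Within the arrays, the log2 ratio of B2m exceeded that of the brightest H2-K1 probe set by 0.31 and that of the brightest H2-D1 probe set by 0.36.

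**Figure D2:**
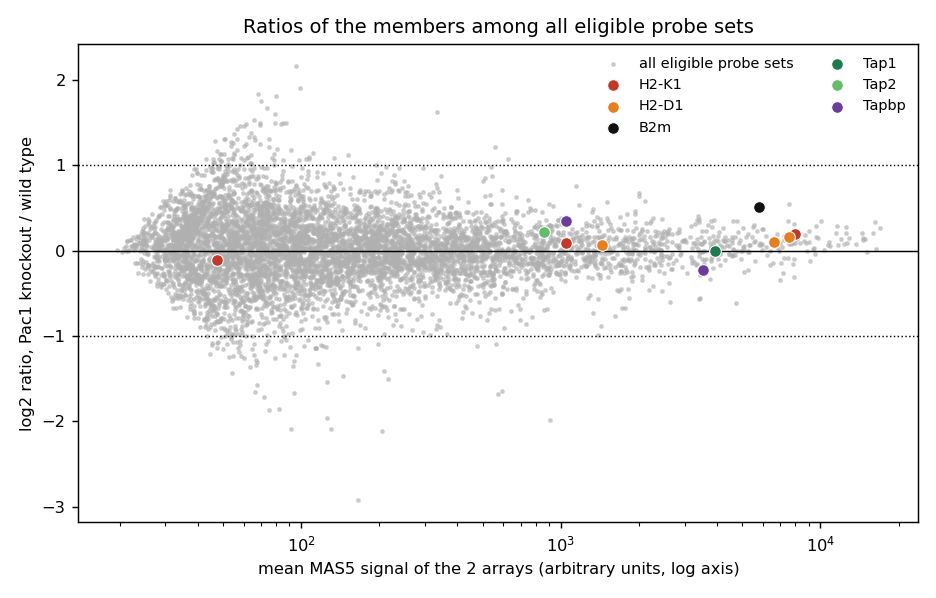
Log2 ratio of the knockout over the wild-type array (vertical axis) against the mean MAS5 signal of the arrays (horizontal log axis) for the 6834 eligible probe sets in grey, with the 11 member probe sets in colour and dotted lines at 2-fold. The members lie within the cloud between −0.22 and 0.51, and B2m stands near its upper edge among bright probe sets.

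Both subunits of the peptide transporter were near the wild-type level. Tap1 was at 3897 on the knockout array against 3922 on the wild-type one (log2 ratio −0.01). Tap2 was at 926 in the knockout against 799 in the wild type (0.21). The ratio of Tap2 exceeded that of Tap1 by 0.22, with 1 probe set behind each. Psmb9, the immunoproteasome subunit gene that starts beside Tap1, was at 1194 in the knockout against 1282 in the wild type (−0.10). Psmb8, its neighbour between Tap1 and Tap2 on chromosome 17, was at 2209 in the knockout against 2153 in the wild type (0.04). The 4 genes of this block therefore lay between −0.10 and 0.21, and a ratio at least as high as that of Tap2 occurred in 27.3% of all eligible probe sets.

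For tapasin the probe sets disagreed in direction. Probe set 100154_at of Tapbp was at 3268 in the knockout against 3814 in the wild type (log2 ratio −0.22). Probe set 102689_at was at 1168 in the knockout against 920 in the wild type (0.35). Their ratios were 0.57 apart. In all, 520 genes had several probe sets measured above the floor in both genotypes. Of these 122, Tapbp included, had a range at least as wide, and the median range was 0.32. Among the 26 of them with several bright probe sets the median range was 0.15 and 1, Tapbp itself, had a range this wide, although its second probe set lay just above the limit for bright ones. No direction is given for Tapbp. Its second probe set and B2m were the 2 of 11 that were at least 25% higher in the knockout, against 18.4% of all eligible probe sets and 6.42% of the bright ones. Of the 11, 0 were at least 20% lower, against 16% of all eligible and 4.49% of bright probe sets.

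**Figure D3:**
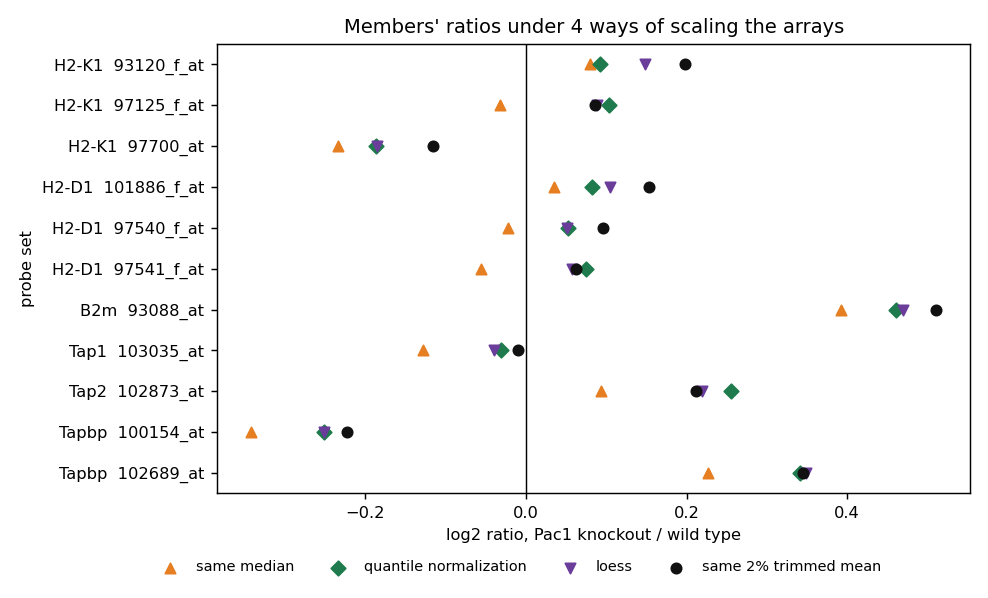
Log2 ratio of the knockout over the wild-type array (horizontal axis) of the 11 member probe sets with the arrays scaled to the same 2% trimmed mean (black circles), to the same median (orange triangles), by quantile normalization (green diamonds) or by loess (purple triangles). B2m stays above 0.39 and the Tapbp probe sets stay on opposite sides of 0, while 3 heavy-chain probe sets cross 0 with the same median.

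The shared probe sets gave little difference where they were bright. Probe set 98472_at, annotated to H2-T23 and H2-T-ps, was at 671 on the knockout array against 645 on the wild-type one (log2 ratio 0.06). Probe set 102161_f_at, annotated to 10 genes including H2-K1, H2-D1 and H2-T23, was at 3502 in the knockout against 3304 in the wild type (0.08). The other shared ones were dim. Probe set 97174_r_at, annotated to H2-K1 and 3 other class I genes, was at 14.6 in the knockout, below the floor, and 41.5 in the wild type, at least 1.14-fold lower in the knockout. Probe set 95773_at, annotated to H2-D1 and 4 genes of the H2-Q group, was below the floor on both arrays, at 7.90 in the knockout against 13.5 in the wild type.

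Other class I genes had ratios on both sides of 0. Of the 18 probe sets annotated to 1 other H2 class I gene, 14 were eligible, 7 of them above and 7 below 0, with a median log2 ratio of 0.01. The lowest, 100305_g_at for H2-M10.1, was at 64.9 in the knockout against 110 in the wild type (−0.77), while the other probe sets of that gene had ratios of 0.34 and 0.06. A further 6 named several class I genes but no member, and 5 of these were eligible, between −0.36 and 0.11. Among them 98438_f_at, for H2-Q9, H2-Q7 and H2-Q5, was at 5016 in the knockout against 4727 in the wild type (0.09).

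Taken by gene, with the brightest probe set of each, all 5115 eligible genes had a median log2 ratio of 0.02, and 52.2% were above 0. The list of other class I genes left out H2-D4 (0.04), H2-Q5 (−0.05) and H2-T18 (−0.12), each alone on an eligible probe set. Of its 16 genes with a probe set here, 11 were eligible, 6 above and 5 below 0, with a median log2 ratio of 0.06. The highest were H2-Q10 at 61.8 in the knockout against 49.7 in the wild type (0.31), H2-K2 at 6137 in the knockout against 5251 in the wild type (0.23) and H2-Bl at 478 in the knockout against 431 in the wild type (0.15). The lowest were H2-T24 at 69.9 in the knockout against 105 in the wild type (−0.59), the CD1d gene Cd1d1, whose product presents lipids, at 58.6 in the knockout against 75.9 in the wild type (−0.37), and H2-M2 at 179 in the knockout against 203 in the wild type (−0.18). H2-T24 was the only 1 of these 11 that was 1.5-fold apart, against 12.1% of all eligible genes, and 0 were 2-fold apart, against 2.31%. A common median of the arrays gave the list a median of −0.06, as did leaving out the probe sets whose suffix marks possible cross-hybridisation.

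Chaperones and folding enzymes that act on the heavy chain before and during loading had ratios of both signs. Of the 10 eligible genes of the list of peptide loading and quality control, 4 were above and 6 below 0, where 52.2% of all eligible genes were above 0. Of the 10, 0 were 1.5-fold apart, against 12.1% of all genes, and the median log2 ratio was −0.07. Canx, which encodes calnexin, the first chaperone of new heavy chains, was at 294 in the knockout against 205 in the wild type (log2 ratio 0.52), but its other probe sets had ratios of −0.10 and −0.01. The dim Hsp90b1, an endoplasmic reticulum chaperone gene, was at 48.3 in the knockout against 37.1 in the wild type (0.38), and the translocon subunit gene Sec61a1 was at 734 in the knockout against 652 in the wild type (0.17). The lowest were the glucosidase subunit gene Ganab (−0.37), the translocon subunit gene Sec61b (−0.16) and Pdia3, which encodes ERp57 of the loading complex, at 373 in the knockout against 403 in the wild type (−0.11). Calr, the calreticulin gene, was below the floor on both arrays.

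Genes that supply peptides had ratios of both signs. Of 15 eligible genes 6 were above and 9 below 0, where 52.2% of all eligible genes were above 0. Of the 15, 0 were 1.5-fold apart, against 12.1% of all genes, and the median log2 ratio was −0.05. Pomp, which encodes a chaperone of proteasome assembly, was at 1646 in the knockout against 2113 in the wild type (−0.36). The peptidase gene Nrd1 was at 120 in the knockout against 155 in the wild type (−0.38), with a ratio of 0.04 from its other probe set, and Psme3, an activator subunit gene, was at 106 in the knockout against 125 in the wild type (−0.23). The highest were the constitutive subunit gene Psmb7 (0.17), the peptidase gene Tpp2 (0.16) and the activator subunit gene Psme2 (0.13). Psmb10, the third immunoproteasome subunit gene, was at 3086 in the knockout against 3325 in the wild type (−0.11), so the 3 immunoproteasome genes ran from −0.11 to 0.04.

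Transcriptional regulators of class I genes had 2 of 8 eligible members above 0, where 52.2% of all eligible genes were, and a median log2 ratio of −0.12. Irf8, a myeloid interferon regulatory factor gene, was at 818 in the knockout against 528 in the wild type (0.63) and was 1.5-fold higher. Rfxank, a subunit gene of the RFX complex that binds the X box, was at 41.3 in the knockout against 69.1 in the wild type (−0.74), a dim pair 1.5-fold lower, while neither genotype reached the floor on a second probe set. These were the 2 of 8 that were 1.5-fold apart, against 12.1% of all eligible genes. Relb, an NF-kB subunit gene, was at 234 in the knockout against 307 in the wild type (−0.39), but its dimmer probe set had a ratio of 0.83. Irf9 was at 874 in the knockout against 1042 in the wild type (−0.25), Usf2 had a ratio of 0.23, and the NF-kB subunit gene Rela was at 2275 in the knockout against 2408 in the wild type (−0.08). The median of the list was 0.01 as the mean over the probe sets of a gene. Nlrc5, the transactivator of class I genes, had no probe set of its own here.

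**Figure D4:**
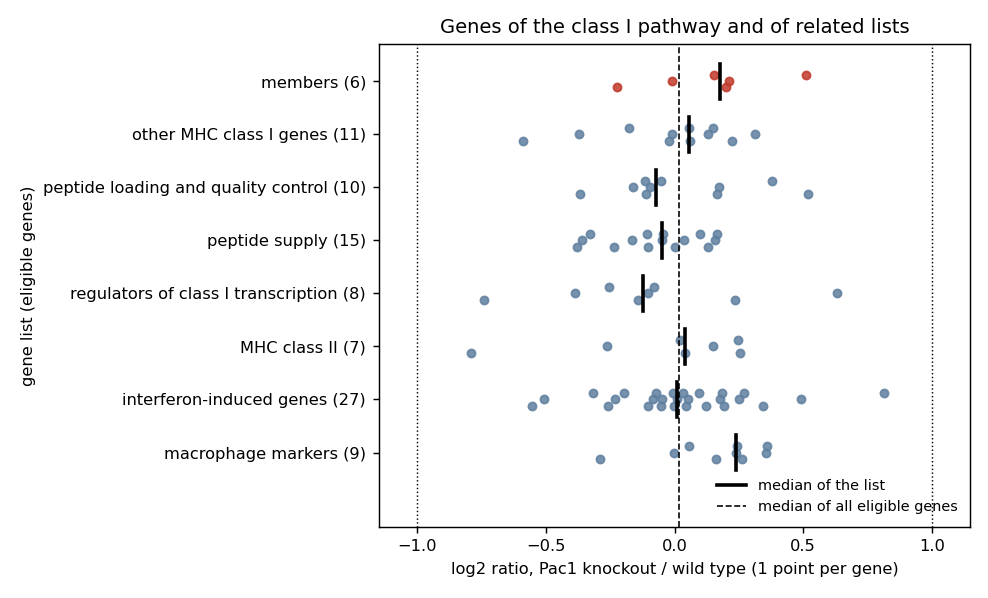
Log2 ratio of the knockout over the wild-type array (horizontal axis), 1 point per eligible gene from its brightest probe set, for the 6 members with a probe set of their own (red), 6 related lists and macrophage markers (blue), with a black bar at the median of each list, a dashed line at 0.02 for all eligible genes and dotted lines at 2-fold. The members' median is 0.18 and those of the 6 related lists run from −0.12 to 0.06, and 0 of the genes drawn are 2-fold apart.

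Neighbouring gene groups were set beside the members as a description. By gene, the 6 members had a median log2 ratio of 0.18, the 7 eligible MHC class II genes 0.04 and the 27 eligible interferon-induced genes 0.01. With arrays scaled to the same median, the class II median was −0.08 and the interferon median −0.11. The members' ratios by gene also fell, to 0.39 for B2m, 0.09 for Tap2, 0.08 for H2-K1 and 0.03 for H2-D1. Tap1 was then at −0.13 and the brightest Tapbp probe set at −0.34, while the other Tapbp probe set was at 0.23. Within class II, H2-DMa and H2-Eb1 had the highest ratios (both 0.25) and H2-Aa the lowest of those above the floor on both arrays, at 319 in the knockout against 382 in the wild type (−0.26). Ciita, the class II transactivator gene, was at 35.6 in the knockout, below the floor, against 63.0 in the wild type, at least 1.73-fold lower in the knockout, and was the 1 of 7 class II genes 1.5-fold apart, against 12.1% of all eligible genes. Among the interferon-induced genes, the antiviral Oas1g (0.82), the GTPase gene Igtp (0.49) and Eif2ak2 (0.34) were highest. The Oas1g pair was dim, at 70.2 in the knockout against 39.9 in the wild type. The GTPase genes Gbp7 (−0.55) and Iigp1 (−0.51), with Sp100 (−0.32), were lowest. The other Iigp1 probe set, at 223.2 in the knockout against 226.5 in the wild type, had a ratio of −0.02. Of the 27 genes, 1 (Oas1g) was 1.5-fold apart, against 12.1% of all eligible genes. Whether the members differ from these groups was not tested.

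Markers of other cells were read in the same way. The summed signals were 649 in the knockout against 717 in the wild type for 7 B cell genes, 122 in the knockout against 144 in the wild type for 7 T and NK cell genes, 488 in the knockout against 557 in the wild type for 7 neutrophil genes, 1144 in the knockout against 1163 in the wild type for 6 dendritic cell genes and 1327 in the knockout against 1684 in the wild type for 9 stromal and mesothelial genes. All of Cd3e, Cd3d, Cd3g, Cd8a, Ncr1 and Gzma and the neutrophil genes Ly6g, Ngp, Ltf and Mpo were below the floor on both arrays. The sums include such signals. Of the T and NK cell genes only Cd4 exceeded the floor, and only in the wild type, at 32.8 in the knockout against 74.5 in the wild type. Among B cell genes Ighm was lowest (log2 ratio −0.90) and Cd79a highest (at least 2.75-fold), Cd4 was at least 2.05-fold lower, and Acta2 was the lowest stromal gene (−1.35) and Dcn the highest (0.37). Neutrophil ratios ran from Csf3r (−0.37) to Camp (0.47), but the other Csf3r probe sets had ratios of −0.23 and 0.28. Dendritic cell ratios ran from Batf3 (−0.39) to Xcr1 (0.29). The part of these cells in the members' ratios was not tested.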

How the data were processed

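The deposited table gives each probe set 1 linear intensity in each genotype, a MAS5 signal per the submitters' processing notes (no version named). Its 2% trimmed means, 150.0 in both arrays, were equal. Detection calls were not used here. Per the labels' protocols, 500 to 1000 ng of total RNA was copied from a poly(T) primer, which weights the 3′ ends of transcripts, and the cells were 92 to 95% positive for Mac-1.

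Probe sets were named through the platform's annotation: 10298 of 12654 had 1 symbol, 363 several and 1993 were not in the table. Arrays were scaled to the same 2% trimmed mean, signals were raised to a floor at their median (36.4), and knockout signals were divided by wild-type ones on the log2 scale. Where 1 signal was below the floor, the fold is a bound ("at least"). The 66 control probe sets were left out. In gene lists each gene stands for its brightest probe set. Genes named are all members, Dusp2, those 2-fold apart, and up to 3 of the highest and 3 of the lowest of each pathway list among genes above the floor on both arrays (for other cells, the highest and the lowest). H2-M10.1, Psmb8, Psmb9, Psmb10, Mrc1, Mpeg1, Creb1, the shared probe sets, Ciita, Calr and Nlrc5 were named after their values were seen or for lacking one. The members, lists and limits were chosen with earlier results of these data known. Scaling and ratios were checked on simulated arrays with known changes of 2-fold or more. Smaller changes, such as the members' ratios, were not simulated. Python 3.11.15, pandas 2.3.3, scipy 1.17.1 and statsmodels 0.14.6 (loess) were used. The number of arrays limits the precision. Promoter stretches came from RefSeq.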

Additional observations from a re-analysis of the deposited data

How the results depend on the processing

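The 10 alternatives covered scaling, the floor, probe sets with a cross-hybridisation suffix and the probe set used per gene. The number of member probe sets 2-fold apart was 0 in every setting that gave it. With arrays scaled to the same median, the members' median log2 ratio was −0.022 instead of 0.10, and the direction of 3 heavy-chain probe sets differed. In the other settings it stayed within 0.1 of that value, the most by which an unreplicated value may move here. It reached 0.18 with 1 probe set per gene and was 0.08 with the mean over the probe sets of a gene. The count of eligible probe sets 2-fold apart was 157, but 1326 with the floor lowered to the 25th percentile, 2827 with no floor and 13 with it raised to the 75th percentile, settings that change how many dim signals enter. The split of 81 higher and 76 lower became 55 and 116 with the same median, and 3 and 10 with the high floor. Without suffixed probe sets 6 member probe sets remained, 3 of them above 0. No paired analysis was possible because each genotype had 1 array. Dim probe sets such as 97700_at limit what can be read from their ratios.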
